A study of Triticum aestivum with 12 samples.

Results

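The developing grains of the winter wheat cultivars TAM112 and TAM111 were compared at 5 days after flowering (DAF, written DAP in the sample labels). The comparison rests on 6 of the 12 libraries of the study, 3 of TAM112 and 3 of TAM111, and takes in 120744 annotated features, of which 65080 had enough counts to be tested. Of the tested features, 64455 lie outside the stretch of chromosome 1A between 10 and 210 Mb and 625 lie inside it. This stretch, called the 1A run here, is described apart from the rest of the genome, and its limits were drawn with earlier results of these data known. The other 6 libraries are grains of the same cultivars at 14 DAF. They share the statistical fit, and are otherwise used to say whether a difference at 5 DAF was also called later, to test the interaction of cultivar and stage and to describe genes and stretches in which a library stands apart.

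Both groups were grown in the field, and the study names no treatment. A library pools grains that were alike in size and grew on 1 inflorescence, and the study chose the best 3 RNA samples of each cultivar and stage for sequencing after polyA selection with a directional kit. Nothing states that the inflorescences came from separate plots, so the p-values measure the spread between these samples, which may be partly technical. Whole grains hold pericarp, endosperm and embryo, and in such bulk RNA fewer cells of a type and less RNA per cell cannot be told apart.

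Bread wheat is hexaploid. Its A, B and D subgenomes came from related grasses, and most genes exist as homeologs, which are corresponding copies on chromosomes of the same group (1A, 1B and 1D, for example). At about this age the grain is small. Nuclei of the endosperm have divided freely and cell walls form between them, the maternal pericarp makes up much of the tissue, and the filling with starch and storage protein lies mostly ahead. The identifiers of the genes used here are those of the Chinese Spring reference and give the chromosome. No gene description could be matched to them (0 identifiers matched the gene table at hand), so no function is given except for the transcription factors whose family the study names. The lists of grain pathways and the markers of pericarp, endosperm, embryo and dividing cells could therefore not be applied, and the tissue was not checked against them.

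The total count per library was between 34880954 and 40464882 in TAM112 and between 31916077 and 37264343 in TAM111. In the 500 most variable genes, the first principal component (75.5% of the variance) separated the cultivars. The second (19.1%) set replicate 3 of both cultivars apart from replicates 1 and 2. In 226 genes, replicate 3 was at least 4-fold below both other replicates in both cultivars, and 183 of these had a higher mean level at 14 DAF than at 5 DAF, against 53.2% of all tested genes. In 10 genes replicate 3 was at least 4-fold above the other replicates in both cultivars, and 9 of these were lower at 14 DAF. Replicate 3 is part of the mean at 5 DAF, so the choice of genes itself tilts both comparisons with 14 DAF in these directions.

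TAM112 replicate 3 stood apart in a further way. Genes along the whole of chromosome 1A were low in it, with a median log2 deviation from the other TAM112 libraries of -0.53 before the 1A run, -0.56 in it and -0.80 after it. The value before the run rests on 24 genes, in which TAM112 replicate 2 deviated by 0.69 and replicate 1 by 0.04. After the run the genes were in replicate 3 at a median of 57.5% of the other TAM112 libraries, and 96.5% of 890 genes were lower. On every other chromosome, the medians of the 6 libraries were between -0.11 and 0.07, and the same stretches of 1A deviated by -0.15 to 0.14 in the libraries of 14 DAF. The main counts and medians over the parts of 1A before, in and after the run are therefore given with and without TAM112 replicate 3. Single 1A genes and sums are given with the value of each library or the fold change without it. Finer counts within the run, other medians at its edges and counts of homeolog copies were made with all libraries.

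**Figure D1:**
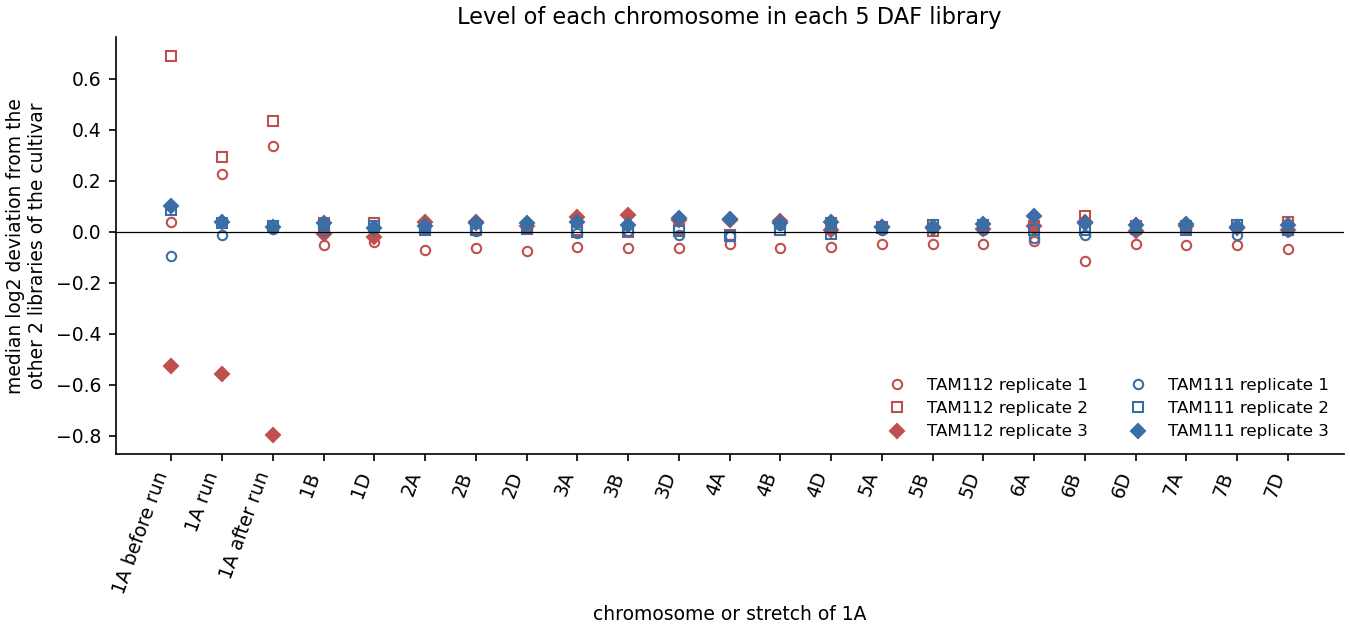
Median log2 deviation of each 5 DAF library from the other libraries of its cultivar (y axis) over the genes of each chromosome or stretch of 1A (x axis), for genes with a mean of at least 5 CPM. TAM112 replicate 3 lies at -0.53 to -0.80 along 1A, while on the other chromosomes all points lie between -0.11 and 0.07. Before the run, where 24 genes were used, TAM112 replicate 2 lies at 0.69.

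The cultivars differed in many genes scattered over the genome. A gene was called differentially expressed (DEG) where edgeR's quasi-likelihood test gave an adjusted p-value under 0.01 and the log2 fold change was above 1 or below -1. Fold changes are TAM112 over TAM111. Of all 65080 tested genes 3.39% were DEGs, with 1.45% higher in TAM112 and 1.93% higher in TAM111. Outside the 1A run, 1790 genes (2.78%) were DEGs, of which 930 (1.44%) were higher in TAM112 and 860 (1.33%) were higher in TAM111. With the replicate number as a block, the count outside the run was 2612, of which 1752 were among the 1790, and 1298 instead of 860 were higher in TAM111. Without TAM111 replicate 2, 615 genes were higher in TAM112, and without TAM112 replicate 1, 572 were higher in TAM111.

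Many of these DEGs were near-absent in 1 cultivar. A cultivar with at most 3 counts in each of its libraries was taken to be at the floor. Of the 930 DEGs higher in TAM112, 276 were at the floor in TAM111, and of the 860 higher in TAM111, 204 were at the floor in TAM112. The other 654 DEGs higher in TAM112 had a median log2 fold change of 2.39 (5.22-fold), and the other 656 higher in TAM111 had one of -2.22 (4.65-fold). The libraries of the cultivars did not overlap in 930 of 930 and in 859 of 860 DEGs, beside 25.1% of all tested genes outside the run. Over all those genes, the median absolute log2 fold change was 0.40. Non-coding RNA features were few, with 9 of 434 called, 4 of them higher in TAM112 and 5 higher in TAM111.

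The genes with the widest differences were read in one cultivar only. TraesCS5B02G023500 (chromosome 5B, 21635289 to 21637591) had 59.2, 69.7 and 71.4 CPM (counts scaled by library size) in TAM112, against 0 counts in each TAM111 library. The difference was at least 754-fold (higher in TAM112, adjusted p = 2.03e-07). TraesCS7D02G488300 (7D, 598357714 to 598360832) had 66.4, 68.9 and 31.8 CPM in TAM112 and again 0 counts in all TAM111 libraries, a difference of at least 629-fold (adjusted p = 7.12e-06). Its replicate 3 was the low one in TAM112, but far above the floor.

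The reverse was seen at the ends of 4B and 6A. TraesCS4B02G396600 (4B, 671124322 to 671125369) had 0 counts in the 3 TAM112 libraries, against 37.1, 60.1 and 94.4 CPM in TAM111, a difference of at least 844-fold (lower in TAM112, adjusted p = 6.87e-06). TraesCS6A02G407700 (6A, 612327666 to 612332960) likewise had 0 counts in TAM112, against 42.9, 60.7 and 56.1 CPM in TAM111, a difference of at least 704-fold (lower in TAM112, adjusted p = 5.58e-07). All 4 genes were called the same way at 14 DAF. TraesCS6A02G407700, for instance, was again at 0 CPM in TAM112, against 165 ± 17.3 CPM in TAM111 (SD, n = 3; adjusted p = 4.46e-07 in the edgeR test).

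Among the DEGs with the highest CPM, which is not scaled for gene length, both cultivars expressed the gene. TraesCS2B02G489600 (2B, 686834230 to 686838629) had 291, 468 and 326 CPM in TAM112, against 65.2, 62.2 and 46.0 CPM in TAM111 (log2 fold change 2.65, SE 0.25, adjusted p = 2.72e-05). TraesCS2B02G137700 (2B, 104580530 to 104581647) had 176, 326 and 196 CPM in TAM112, against 90.7, 81.5 and 69.9 CPM in TAM111 (log2 fold change 1.53, SE 0.25, adjusted p = 0.00196). In both genes every TAM112 library was above every TAM111 library, and TAM112 replicate 2 was the highest. The call of TraesCS2B02G137700 was lost without replicate 2 or replicate 3 of TAM111.

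TraesCS1D02G103200 (1D, 92959197 to 92963507) had the highest CPM of the DEGs that were lower in TAM112, with 157, 108 and 198 CPM, against 1688, 1290 and 1642 CPM in TAM111. Its log2 fold change was -3.32 (SE 0.47, adjusted p = 0.000715). TraesCS2A02G130900 (2A, 78598531 to 78600485, with 1 exon) had 129, 138 and 314 CPM in TAM112, against 598, 612 and 524 CPM in TAM111 (log2 fold change -1.58, SE 0.31, adjusted p = 0.00799). Here TAM112 replicate 3 stood nearer to TAM111 than the other replicates, though the groups did not overlap, and the call was lost in 8 of the alternative settings, among them each left-out library other than TAM112 replicate 3.

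**Figure D2:**
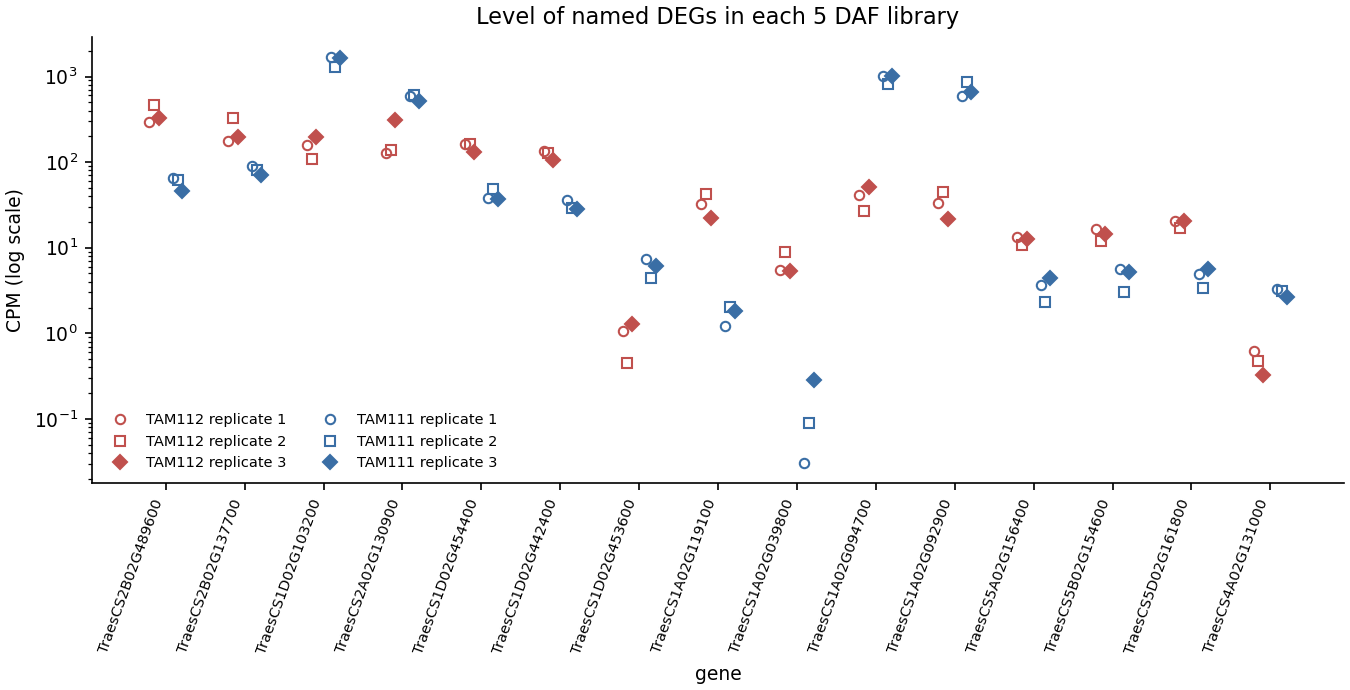
CPM on a log axis (y) of 15 named DEGs (x) in each of the 3 TAM112 and 3 TAM111 libraries of 5 DAF. The libraries of the cultivars do not overlap in any of these genes, and TAM112 replicate 3 of TraesCS2A02G130900 (314 CPM) comes nearest to the TAM111 values.

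The direction of the differences changed with the level of the gene. Genes were put in classes by their CPM per kb of exon in the higher cultivar, a division made after seeing the data. Over 19991 genes under 1 CPM per kb the median log2 fold change was 0.21, over 31400 genes from 1 to 10 it was 0.07, over 11392 genes from 10 to 100 it was -0.17, and over 1672 genes at 100 or above it was -0.56. In the top class 85.4% of the genes were lower in TAM112 by fold change. With library sizes alone in place of scaling factors, which raised the median of all genes outside the run by 0.16, the medians were 0.36, 0.23, -0.01 and -0.40, so the order of the classes was the same and the third class was close to 0.

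In the top class 10 DEGs were higher in TAM112 and 52 were higher in TAM111. Together they were 3.71% of the class, beside 2.78% of all tested genes outside the run. The 52 genes lay on 17 chromosomes, 45 of them were called the same way at 14 DAF, and 25 of them (48.1%) had 1 exon, against 27.3% of the genes in the class. The 10 genes were all called the same way at 14 DAF. Across the alternative settings the counts were 7 to 15 and 29 to 200, and the replicate block gave 11 and 200.

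Chromosomes differed widely in their share of DEGs. Of the tested genes outside the run, 3.36% were DEGs in the B subgenome (378 higher in TAM112 and 337 higher in TAM111), 2.8% in the A subgenome (257 and 321) and 2.09% in the D subgenome (270 and 181). B was the highest and D the lowest in each alternative setting. With the replicate block the shares were 4.84% (B), 3.98% (A) and 3.22% (D). Chromosome 6B had the largest share (6.04%, with 76 genes higher in TAM112 and 89 higher in TAM111), followed by 1B (5.69%, 87 and 78), 1D (5.56%, 124 and 34) and the part of 1A outside the run (5.44%, 29 and 87). These 4 chromosomes led in every setting, in changing order. The rank of 1D rested on its end, since before 480 Mb its share was 3.23%, below 6A (4.23%), 2B (3.63%) and 7B (3.57%). Without TAM112 replicate 3, the part of 1A outside the run had 43 genes higher and 64 lower in TAM112. Chromosome 5D had the smallest share in every setting, with 26 DEGs of 3457 genes (0.752%), 17 of them higher in TAM112 and 9 higher in TAM111. On 2D the share was 1.16%.

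**Figure D3:**
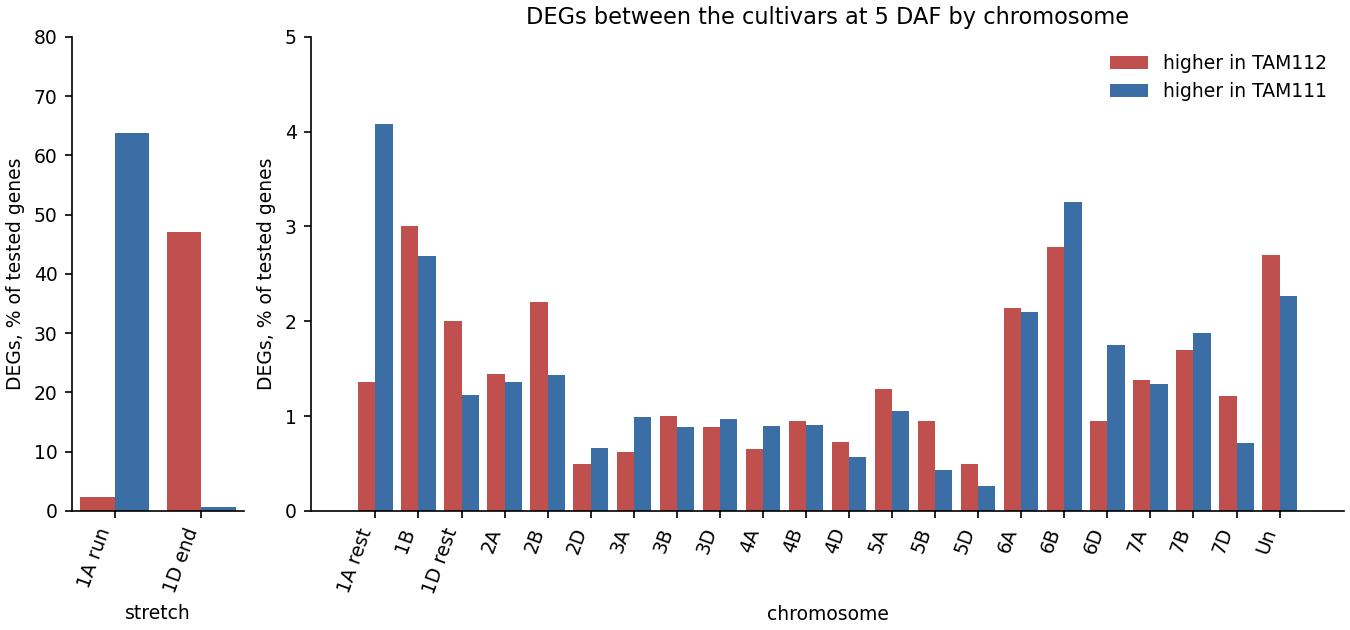
DEGs higher in TAM112 (red) and higher in TAM111 (blue) as a percentage of the tested genes of each chromosome (y axis; the left panel has its own scale). The 1A run (63.7% higher in TAM111) and the end of 1D (47.0% higher in TAM112) are drawn on the left, and the other bars reach at most 4.08%.

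DEGs lay more densely near chromosome ends. In the outermost 5% of the chromosome length on either side 6.03% of the genes were DEGs (5.43% without the end of 1D). From 5 to 20% of the length the share was 2.70%, and in the inner part it was 1.6%. DEGs also had DEGs as neighbours. Of those higher in TAM112, 23.4% had an adjacent tested gene called the same way, against 2.65% of all tested genes, and of those higher in TAM111 24.4% did, against 2.48%.

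The genome was also divided into windows of 10 Mb. Of 1147 windows with at least 20 tested genes, 572 held no DEG. In 40 windows at least 10% of the genes were called in 1 direction, and these held 496 of the 1790 DEGs among 2340 tested genes, so most DEGs lay outside the dense windows. Outside 1A and 1D, the densest windows with genes lower in TAM112 were 6B from 40 to 50 Mb (22 of 81 genes, median log2 fold change -0.85), 6A from 10 to 20 Mb (16 of 79) and 1B from 630 to 640 Mb (11 of 60). The densest with genes higher in TAM112 were 2B from 680 to 690 Mb (14 of 59, median 0.55), 6B from 670 to 680 Mb (8 of 38), 2B from 10 to 20 Mb (11 of 53) and 2A from 0 to 10 Mb (15 of 73, none of the 73 lower).

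In 20 stretches, found after the values were seen, at least 4 consecutive tested genes were DEGs in the same direction. The end of 1D had 6 of them with 39 genes, and the other 14, with 73 genes, lay on 1A, 1B, 2A, 2B, 3D, 6A, 6B, 6D and 7D. Of these 14, 6 were higher in TAM112 and 8 were higher in TAM111.

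Outside the end of 1D, the stretch with the most genes lay on 6A, from TraesCS6A02G034300 to TraesCS6A02G035500 (16593009 to 17531735). Its 10 genes summed to 84.2, 168 and 124 CPM in TAM112, against 963, 1414 and 1821 CPM in TAM111, and each of them was lower in TAM112, with log2 fold changes of -8.57 to -1.89. In 8 of the 10 genes the models are short, with 1 or 2 exons and exonic lengths of 435 to 878 bases. TraesCS6A02G035000, with 1 exon of 435 bases, had 4.42 ± 1.45 CPM in TAM112 and 172 ± 53.0 CPM in TAM111 (SD, n = 3 each; edgeR adjusted p = 1e-06). Of the 10 genes, 9 were called the same way at 14 DAF. Between the nearest genes with collinear copies on either side (13665241 to 23409174 on 6A), 4 genes were higher and 18 lower in TAM112 of 68 tested. In the collinear interval of 6B the counts were 5 and 14, and in that of 6D they were 5 and 8. More genes were tested in each of these intervals than on 6A. The share of genes lower in TAM112 was therefore smaller on 6B than on 6A, and smaller still on 6D. The 6A interval was drawn around the 10 genes of the stretch, which were chosen because they were lower. Its larger share is thus partly fixed by that choice, and the values do not show that 6A differs from 6B. In each interval the share was above the 1.33% of all tested genes outside the run.

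Several stretches were read almost only in TAM112. On 6B, 7 genes from TraesCS6B02G396100 to TraesCS6B02G398100 (672158398 to 673691550) summed to 22.5, 29.7 and 20.7 CPM in TAM112, against 0.185, 0.0296 and 0.226 CPM in TAM111, where 6 of the 7 were at the floor. On 3D, 5 genes from TraesCS3D02G468400 to TraesCS3D02G468900 (570801163 to 571210815) summed to 23.8, 25.5 and 20.2 CPM in TAM112, against 0.0923, 0.178 and 0.0282 CPM in TAM111. On 7D, 5 genes from TraesCS7D02G457200 to TraesCS7D02G458000 (575679950 to 575955076) had 19.9, 16.9 and 16.9 CPM in TAM112, against 0.0923, 0.0296 and 0.141 CPM in TAM111. In all 3 stretches every gene was called again at 14 DAF.

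On 2A a stretch of the opposite kind was near-absent in TAM112. Its 4 genes from TraesCS2A02G122900 to TraesCS2A02G123700 (72735025 to 73153457) summed to 1.08, 1.68 and 2.50 CPM in TAM112, against 126, 168 and 209 CPM in TAM111. On 2B, 2 stretches close to each other were higher in TAM112, but expressed in both cultivars. The 5 genes from TraesCS2B02G488000 (685265721 to 687228505) summed to 358, 578 and 412 CPM in TAM112, against 69.0, 65.6 and 50.7 CPM in TAM111, most of it from TraesCS2B02G489600. The 4 genes from TraesCS2B02G490800 (688456640 to 689144392) summed to 174, 237 and 174 CPM in TAM112, against 42.4, 41.6 and 40.6 CPM in TAM111.

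**Figure D4:**
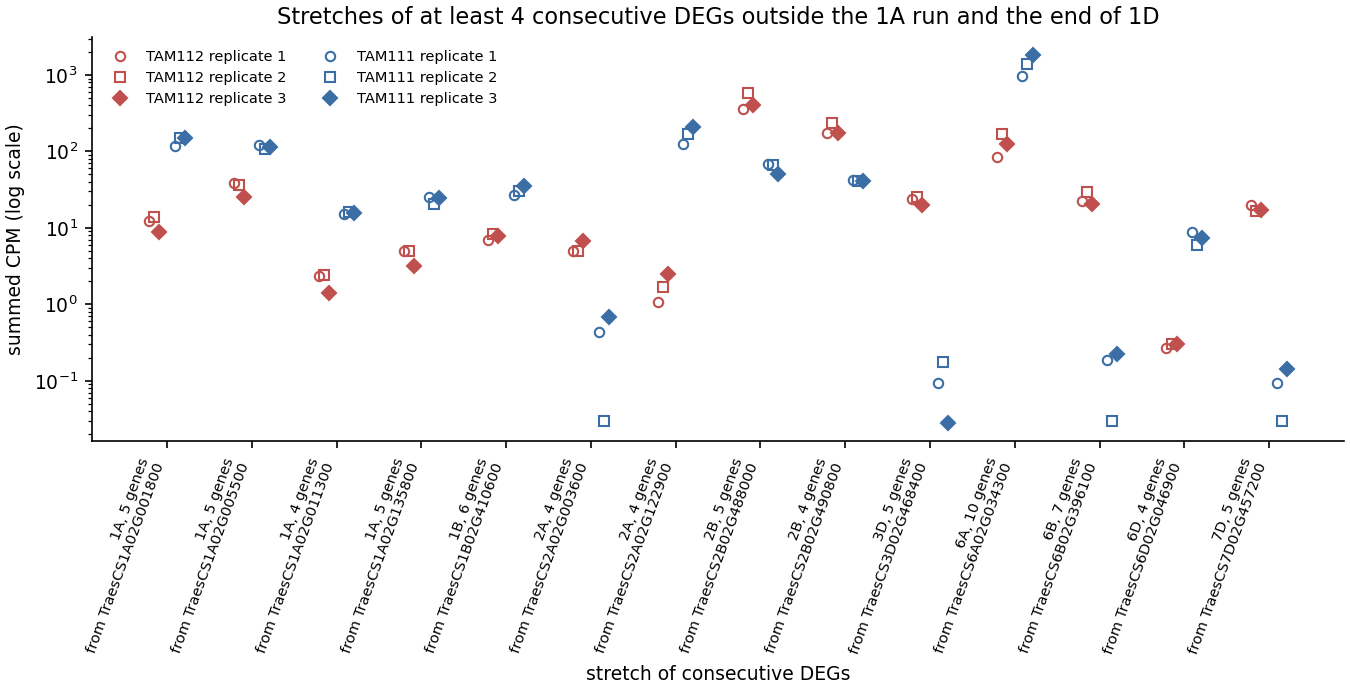
CPM summed over the genes of each stretch of at least 4 consecutive DEGs (x axis, named by chromosome and first gene), on a log axis (y), in the 3 TAM112 and 3 TAM111 libraries. The 14 stretches were chosen because their genes differ, so the separation of the cultivars is a description. The widest separations are those on 3D, 6B and 7D, where the TAM111 libraries reach at most 0.226 CPM.

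The end of 1D was the densest region with DEGs outside 1A. From 480 Mb, a limit set with earlier results known, 70 of 149 tested genes were higher in TAM112 and 1 was higher in TAM111, with a median log2 fold change of 2.00. Just before this limit, from 470 to 480 Mb, 1 of 131 genes was called (median 0.12), and from 480 to 490 Mb 37 of 104 were (median 1.32). From 490 to 500 Mb, 33 of 45 were higher in TAM112 (median 2.98). Across the alternative settings 52 to 85 genes were higher in TAM112 and 1 to 3 were higher in TAM111.

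TraesCS1D02G454400 (495110924 to 495114039), the DEG with the highest CPM there, had 161, 162 and 132 CPM in TAM112, against 38.2, 48.3 and 36.7 CPM in TAM111 (log2 fold change 1.89, SE 0.23, adjusted p = 0.000183). TraesCS1D02G442400 (486876302 to 486879051) had 135, 126 and 105 CPM in TAM112, against 36.2, 29.3 and 28.0 CPM in TAM111 (log2 fold change 1.97, SE 0.17, adjusted p = 1.09e-05). In both genes replicate 3 was the lowest TAM112 library and still far above every TAM111 library. The only DEG in the other direction was TraesCS1D02G453600 (494465151 to 494473545), with 1.06, 0.447 and 1.27 CPM in TAM112, against 7.44, 4.44 and 6.17 CPM in TAM111 (log2 fold change -2.69, SE 0.36, adjusted p = 0.00048).

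The counts on either side of the 1A run moved with TAM112 replicate 3. Before 10 Mb, 3 genes were higher and 33 lower in TAM112 of 141 tested, and without that library 4 were higher and 29 lower of 145. From 210 Mb, 26 were higher and 54 lower of 1990, with a median log2 fold change of -0.18. Without that library 39 were higher and 35 lower of 2041, with a median of 0.04, so the excess of lower genes rested on it. With the replicate block and all libraries 34 were higher and 95 lower. Of the stretches of consecutive DEGs on 1A, 3 lay before 10 Mb and 1 just past 210 Mb, all lower in TAM112. The one from TraesCS1A02G001800 (1144333 to 1190864) summed to 12.5, 14.0 and 8.73 CPM in TAM112, against 117, 151 and 148 CPM in TAM111.

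In the 1A run, nearly all genes were lower in TAM112. Of 625 tested genes 398 were DEGs higher in TAM111 and 15 were DEGs higher in TAM112, and 577 had a fold change below 0. The median log2 fold change was -2.69. Together the genes of the run took 1962, 2129 and 1228 CPM in TAM112, against 10030, 11060 and 11000 CPM in TAM111, so that TAM112 had 16.6% of the TAM111 level. Replicate 3 was the lowest TAM112 library. Without it, 356 of 649 genes were lower and 15 higher, with a median of -2.53.

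The lower level in the run was spread over most of its genes. Of 481 genes with at least 1 CPM in TAM111, 371 were called lower in TAM112, 63 were at the floor in TAM112 and 21 were within 0.5 of TAM111 on the log2 scale. Their median level in TAM112 was 15.1% of that in TAM111. At the left edge, the median log2 fold change was -0.24 from 0 to 10 Mb (141 genes) and -2.37 from 10 to 20 Mb (69 genes). Without TAM112 replicate 3 the median from 0 to 10 Mb was -0.11. At the right edge few genes were tested, with a median of -2.05 from 200 to 210 Mb (8 genes) and -0.20 from 210 to 220 Mb (11 genes).

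Of the DEGs lower in TAM112 here, TraesCS1A02G094700 (90106135 to 90110560) had the highest CPM, with 41.2, 26.9 and 50.9 CPM in TAM112, against 1027, 814 and 1025 CPM in TAM111 (log2 fold change -4.59, SE 0.48, adjusted p = 5.79e-05). TraesCS1A02G092900 (85344049 to 85346466) had 33.7, 45.3 and 21.6 CPM in TAM112, against 598, 852 and 654 CPM in TAM111 (log2 fold change -4.39, SE 0.32, adjusted p = 2.96e-06). The gene models of TraesCS1A02G094700 and TraesCS1D02G103200, the most abundant lower DEG outside the run by CPM, are alike. They are the only 2 genes of 4 exons whose internal exons measure 299 and 34 bases, and both were lower in TAM112. How reads that fit both were counted is not stated, so their levels are uncertain.

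A few genes of the run went the other way. TraesCS1A02G119100 (129003620 to 129005020) had 32.5, 41.9 and 22.4 CPM in TAM112, against 1.23, 2.01 and 1.80 CPM in TAM111 (log2 fold change 4.26, SE 0.29, adjusted p = 1.84e-06). TraesCS1A02G039800 (21985330 to 21987056) had 5.44, 8.94 and 5.31 CPM in TAM112, against 0.0308, 0.0889 and 0.282 CPM in TAM111 (log2 fold change 5.55, SE 0.55, adjusted p = 3.67e-05). Of the 15 DEGs of the run higher in TAM112, 7 were at the floor in TAM111. Of the 398 higher in TAM111, 84 were at the floor in TAM112.

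To follow homeologs, genes were matched across subgenomes by the lengths of their internal exons and by collinear position. This gave 6300 sets of an A, a B and a D copy, of which 5714 had all copies tested. The A copy lay outside the run in 5533 sets. In 5223 of these no copy was a DEG, in 287 exactly 1 was, in 22 exactly 2 were and in 1 all were, so that 5.60% had at least 1. Of the 22 sets, 10 had both DEGs in the same direction and 12 in opposite directions. By copy, 59 A copies were higher and 52 lower in TAM112, 75 B copies were higher and 60 lower, and 70 D copies were higher and 18 lower, the end of 1D included. At that end 23 D copies were higher and 1 was lower. Those higher in TAM112 were 1.07% (A), 1.36% (B) and 1.27% (D) of the copies, beside 1.44% of all tested genes outside the run. The shares lower were likewise below the 1.33% of all these genes.

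In the sets where 1 copy alone was a DEG, the other copies were by definition not called. Their medians, given here as a description, are therefore partly fixed by the choice of sets. In 175 sets the DEG was higher in TAM112, with a median log2 fold change of 1.99, and the other copies had a median of 0.21. In the rest of the 287 sets it was lower, with a median of -2.25, and the other copies had a median of 0.08. The copies of chromosome groups 2 to 7 (4919 sets) had medians of 0.15 (A), 0.18 (B) and 0.15 (D), so a small positive value is the level against which these are read. Summed per kb over the 3 copies, the sets differed by a median of 0.65 and -0.43.

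TraesCS2A02G383600 (2A, 628582422 to 628585005) belonged to 1 of the 3 sets with the highest summed CPM in which 1 copy was a DEG. It had 55.5, 80.7 and 67.8 CPM in TAM112, against 133, 195 and 160 CPM in TAM111 (log2 fold change -1.26, SE 0.19, adjusted p = 0.00131). Its B copy TraesCS2B02G400600 averaged 109 ± 15.5 CPM in TAM112 and 157 ± 30.4 CPM in TAM111, with a log2 fold change of -0.53. Its D copy TraesCS2D02G379700 averaged 109 ± 23.6 CPM in TAM112 and 171 ± 30.4 CPM in TAM111, with a log2 fold change of -0.65 (SD, n = 3 each). Neither passed the edgeR threshold (adjusted p = 0.121 and 0.0729), and all 3 copies had fold changes below 0.

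In 1 set all copies were DEGs, and it lay on group 5, where DEGs were few. TraesCS5A02G156400 (5A, 335290022 to 335296361) had 13.2, 10.8 and 12.5 CPM in TAM112, against 3.63, 2.34 and 4.43 CPM in TAM111 (log2 fold change 1.81, SE 0.29, adjusted p = 0.00171). TraesCS5B02G154600 (5B, 285036423 to 285042905) had 16.5, 11.9 and 14.4 CPM in TAM112, against 5.60, 3.08 and 5.22 CPM in TAM111 (log2 fold change 1.62, SE 0.28, adjusted p = 0.00346). TraesCS5D02G161800 (5D, 252614248 to 252620696) had 20.5, 16.9 and 20.5 CPM in TAM112, against 4.92, 3.35 and 5.64 CPM in TAM111 (log2 fold change 2.06, SE 0.26, adjusted p = 0.000274). The gene models have 15 exons each, and the cultivars were well apart in every copy. At 14 DAF the log2 fold changes were 0.35, -0.33 and -0.59 and none was a DEG. The interaction of cultivar and stage passed the threshold in the D copy (log2 -2.65, adjusted p = 0.00614) and not in the A and B copies (adjusted p = 0.0547 and 0.0216), and it was lost when replicate 1 or 2 of either cultivar was left out. The call of the B copy at 5 DAF was lost without TAM112 replicate 1 or TAM111 replicate 2.

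In the run, the A copies were low while the B and D copies were somewhat high in TAM112. Of 181 sets, 129 A copies were lower and 1 was higher in TAM112, 13 B copies were higher and 1 was lower, and 6 D copies were higher and 1 was lower. The B and D copies called higher were 7.2% and 3.3% of these sets. Where the A copy lay outside the run, the shares were 1.4% and 1.3%. The median log2 fold changes were -2.44 (A), 0.47 (B) and 0.41 (D), and in each alternative setting those of B and D were above the medians of groups 2 to 7. Without TAM112 replicate 3 the medians were -2.22 (A), 0.50 (B) and 0.44 (D). The A copies made up 7.90%, 7.58% and 4.90% of the CPM per kb of the sets in TAM112, against 33.4%, 33.9% and 33.7% in TAM111. The median log2 ratio of the 3 copies summed was -0.03, and the total over the sets was 4204 ± 270 CPM per kb in TAM112 and 5443 ± 323 CPM per kb in TAM111 (SD, n = 3 each). With 3 libraries against 3 an exact permutation test cannot give a p below 0.1, so such sums and shares carry no p-value.

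In the set of TraesCS1A02G092900, one of the 3 with the highest summed CPM, the other copies were not high. Its B copy TraesCS1B02G120600 (1B, 142522456 to 142524881) averaged 420 ± 72.4 CPM in TAM112 and 505 ± 91.8 CPM in TAM111, and its D copy TraesCS1D02G101600 (1D, 89239188 to 89241444) averaged 560 ± 87.7 CPM in TAM112 and 737 ± 137 CPM in TAM111 (SD, n = 3 each). Neither was a DEG (log2 fold changes -0.27 and -0.40, edgeR adjusted p = 0.461 and 0.276). In the set of TraesCS1A02G097400 (93693503 to 93698187) they leaned up. The A copy averaged 32.4 ± 6.36 CPM in TAM112 and 131 ± 8.12 CPM in TAM111 (SD, n = 3 each; log2 fold change -2.01, edgeR adjusted p = 9.35e-06, and -1.86 without TAM112 replicate 3). The B copy TraesCS1B02G126500 had 151, 142 and 159 CPM in TAM112, against 107, 99.6 and 100.1 CPM in TAM111 (log2 fold change 0.56, SE 0.14), and the D copy TraesCS1D02G106200 had 132, 123 and 130 CPM in TAM112, against 110.4, 105 and 96.5 CPM in TAM111 (log2 fold change 0.31, SE 0.14). Their libraries did not overlap, but neither passed the DEG threshold (adjusted p = 0.0304 and 0.182).

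At the end of 1D the D copies were the ones that differed. Of 43 sets, 23 D copies were higher and 1 was lower in TAM112, while 3 B copies and 1 A copy were lower and none of the B or A copies (0) was higher. Among the 5533 sets with the A copy outside the run, 60 B copies and 52 A copies were lower. In the 43 sets the D copies made up 38.4%, 38.7% and 42.6% of the CPM per kb in TAM112, against 15.7%, 15.1% and 16.3% in TAM111. In replicate 3 of TAM112, the library that was low along 1A, the A copies of these sets made up 20.4%, against 30.9% and 30.8% in the other TAM112 libraries, a difference that enters the D share. The summed level of these sets was 1196 ± 71.5 CPM per kb in TAM112 and 1127 ± 35.0 CPM per kb in TAM111 (SD, n = 3 each). The homeologs of TraesCS1D02G442400 moved apart in both directions. Its B copy TraesCS1B02G468700 (1B, 678046588 to 678050014) had 57.1, 51.1 and 41.9 CPM in TAM112, against 164, 149 and 115 CPM in TAM111 (log2 fold change -1.51, SE 0.19, adjusted p = 0.000343), and its A copy TraesCS1A02G433000 had 173, 160 and 78.2 CPM in TAM112, against 198, 183 and 140 CPM in TAM111 (log2 fold change -0.34, adjusted p = 0.45, and -0.06 without TAM112 replicate 3). For TraesCS1D02G453600, the 1 gene there that was lower in TAM112, the B copy TraesCS1B02G480100 was lower too (33.7, 25.7 and 56.3 CPM in TAM112, against 106, 74.8 and 103 CPM in TAM111; log2 fold change -1.30, SE 0.26, adjusted p = 0.00867), a call that only leaving out TAM112 replicate 3 kept among the left-out libraries. Its A copy TraesCS1A02G445500 had a log2 fold change of -0.49 (adjusted p = 0.278), and -0.40 without TAM112 replicate 3.

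**Figure D5:**
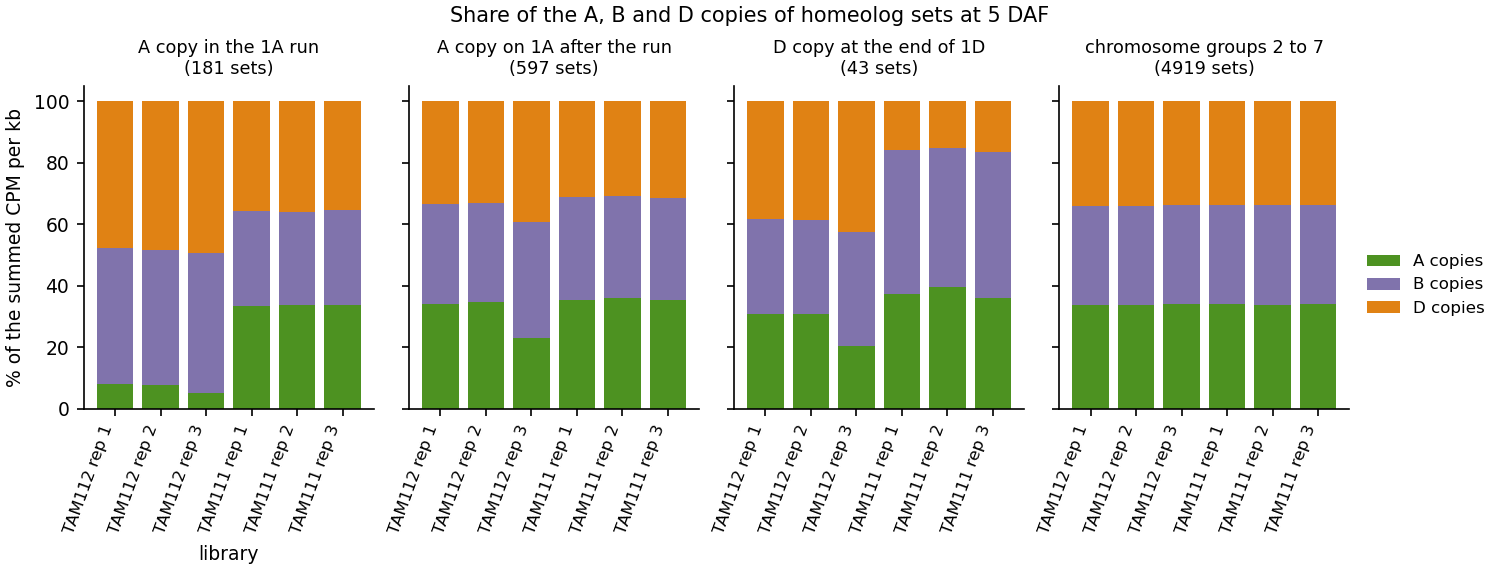
Share of the A, B and D copies in the summed CPM per kb of homeolog sets (y axis, %) in each 5 DAF library (x axis), for 4 groups of sets. In the 1A run the A copies fall to 4.90% to 7.90% in TAM112, against 33.4% to 33.9% in TAM111. At the end of 1D the D copies reach 38.4% to 42.6% in TAM112, against 15.1% to 16.3% in TAM111, and in groups 2 to 7 the libraries are alike.

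After 210 Mb on 1A (597 sets) the A copies made up 34.1%, 34.7% and 22.9% in TAM112, against 35.4%, 36.0% and 35.3% in TAM111. Only replicate 3 of TAM112 was far from the others, as in the deviations by chromosome. In groups 2 to 7 the A share was 33.7%, 33.7% and 34.0% in TAM112, against 34.0%, 33.9% and 34.1% in TAM111.

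The study names 34 transcription factors for their connections in gene networks, chosen partly from these libraries, and all 34 were tested. Of these, 1 was a DEG, a share close to the 2.78% of all genes outside the run. It was the NAC factor TraesCS4A02G131000 (4A, 174155319 to 174157653), of a plant family that includes regulators of senescence and development. It had 0.615, 0.475 and 0.324 CPM in TAM112, against 3.29, 3.11 and 2.62 CPM in TAM111 (log2 fold change -2.67, SE 0.28, adjusted p = 5.63e-05). The groups were far apart at a low level. At 14 DAF it averaged 24.1 ± 6.57 CPM in TAM112 and 36.7 ± 5.08 CPM in TAM111 (SD, n = 3 each; log2 fold change -0.61, edgeR adjusted p = 0.054), and the interaction had an adjusted p of 0.0137. At an unadjusted p under 0.05, 8 of the 34 would pass, beside 26.2% of the genes outside the run. With the replicate block 3 of the 34 were DEGs, beside 2612 of the 64455 tested genes outside the run. In that setting the share of the factors was the larger one, though it rests on 3 genes.

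Some of these factors varied widely between replicates. TraesCS7B02G248300 (7B, 458611206 to 458612983) encodes a subunit of Nuclear Factor-Y, a complex that binds CCAAT boxes in promoters. It had 87.6, 149 and 3.70 CPM in TAM112, against 55.3, 67.5 and 0 CPM in TAM111 (log2 fold change 0.97, SE 1.35, adjusted p = 0.681). Replicate 3 was the lowest library of both cultivars, and the ranges overlapped. TraesCS3A02G325800 (3A, 571174803 to 571179957), of the HD-Zip IV family of homeodomain factors, had 65.1, 64.6 and 28.0 CPM in TAM112, against 105, 79.1 and 16.4 CPM in TAM111 (log2 fold change -0.35, SE 0.93, adjusted p = 0.847). Replicate 3 was the lowest library in both cultivars in 21 of the 34 factors, against 16.8% of all tested genes, and 11 of the 34 were among the 226 genes with replicate 3 at least 4-fold below the others. The 12 NAC factors had log2 fold changes of -2.67 to 5.60. The highest was that of TraesCS7B02G056300, near the floor at 0.167 ± 0.221 CPM in TAM112 and 0 CPM in TAM111 (SD, n = 3 each). Its SE was 1.93 and its edgeR adjusted p was 0.0994. The 3 Nuclear Factor-Y genes had log2 fold changes of 0.91 to 1.05 with SE of 1.20 to 1.35, and none was a DEG.

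Most differences of the young grain were called again in the older grain. At 14 DAF, 7.02% of all tested genes were higher in TAM112 and 7.45% were higher in TAM111. Outside the run, 708 of the 930 DEGs higher in TAM112 at 5 DAF (76.1%) were called the same way at 14 DAF and 6 the opposite way, and 626 of the 860 higher in TAM111 (72.8%) were called the same way and 7 the opposite way. These shared genes made up 15.6% of the 4552 and 14.3% of the 4390 DEGs of 14 DAF outside the run. The interaction of cultivar and stage passed an adjusted p of 0.01 in 24 of the 930 and in 15 of the 860. Among all 64455 tested genes outside the run it did so in 194, a smaller share. The DEGs were chosen by values of 5 DAF that also enter the interaction, so their larger share is partly fixed by that choice. In the run, 367 of the 398 lower in TAM112 and 12 of the 15 higher were called the same way at 14 DAF. Of all 625 tested genes of the run, 457 were called lower and 18 higher in TAM112 at that stage.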

How the data were processed

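Grain RNA of 2 cultivars at 5 and 14 DAF was sequenced in 12 libraries as paired 100-nt reads. The authors removed adapters and bases of low quality (Cutadapt, Trimmomatic), aligned what was left to the Chinese Spring assembly of the IWGSC (HISAT2) and counted it per gene (featureCounts of Subread). The deposited values are whole-number counts, not normalized, with gene positions. Coordinates are those of the deposited gene models. How strand and multiply matching reads were treated is not given in the sources used here, so near-identical homeologs, paralogs and overlapping genes are uncertain. Reads were mapped to 1 reference, and a gene that is missing or divergent there is undercounted. All columns of values per library were used (0 left out).

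Libraries were grouped by the cultivar and stage in their titles and cultivar labels. The growth text of all 12 samples gives another cultivar name (TAM11447), which was not used. Counts were fitted in R 4.3.3 with edgeR 4.0.16 (filterByExpr, TMM, quasi-likelihood test, 1 coefficient per cultivar and stage, all 12 libraries), and p-values were adjusted by Benjamini and Hochberg over 65080 genes. DESeq2 1.42.0 was an alternative. SE was obtained from the log2 fold change and the F statistic. CPM uses TMM-scaled totals, and 1 count was worth 0.0231 to 0.0308 CPM. Folds against a cultivar at the floor were computed against 3 counts per library and are lower bounds; floors cover counting error only. The script was tested on simulated data. Tables and figures used Python 3.11.15, pandas 2.3.3 and matplotlib 3.10.9.

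Named genes were, outside the run and the end of 1D, the 2 DEGs per direction with the largest fold change and the 2 with the highest CPM, the 2 with the highest CPM per direction in the run and at the end of 1D, the listed transcription factors that were DEGs with the 2 most abundant others, the homeologs of these genes, and the 3 most abundant homeolog sets with 1 DEG and those with all copies DEGs. TraesCS6A02G035000 and the first and last genes of stretches were named after their values were seen. The members, lists and limits were chosen with earlier results of these data known. Homeologs were unique reciprocal best matches sharing a run of 3 internal exon lengths and at least 60% of the longer series of lengths, with 2 or more other matches within 20 genes, a rule chosen after the gene models, but not the counts, were seen, because the planned rule on exonic length (within 2%) left 414 tested sets. Of 202 A copies in both, 94.6% had the same partners.

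To check whether replicate numbers pair the libraries, deviations from the cultivar means were correlated. Libraries with the same number had correlations of 0.365, 0.34 and 0.528, and the other pairs had -0.397 to 0.171, so that the numbers may pair the libraries. The labels state no pairing. Deviations from a shared mean depend on each other, and the highest value is that of replicate 3, which stood apart in both cultivars. The correlations therefore cannot settle whether the libraries are paired. The reported fit has no block for the number, and counts with the block are given beside it for the main results that it moved.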

Additional observations from a re-analysis of the deposited data

Results flagged for a closer look

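The cultivar difference of TraesCS5D02G161800 differed between the stages by the test of the interaction itself. At 5 DAF it averaged 19.3 ± 2.03 CPM in TAM112 and 4.64 ± 1.17 CPM in TAM111, and at 14 DAF 7.99 ± 1.64 CPM in TAM112 and 12.02 ± 3.40 CPM in TAM111 (SD, n = 3 each). The interaction was -2.65 on the log2 scale (edgeR adjusted p = 0.00614). The same value was -1.46 in its A copy TraesCS5A02G156400 and -1.95 in its B copy TraesCS5B02G154600 (adjusted p = 0.0547 and 0.0216), which did not pass. The call in the D copy was lost when replicate 1 or 2 of either cultivar was left out.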

How the results depend on the processing

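Outside the 1A run, 1790 DEGs (930 higher in TAM112, 860 higher in TAM111) became 3280 (1655 and 1625) with DESeq2, 1015 (517 and 498) with only the 5 DAF libraries, 3374 (1781 and 1593) at an adjusted p under 0.05 and 972 (510 and 462) with glmTreat at a log2 threshold of 1. With the replicate block the counts were 2612, 1314 and 1298, and 438 instead of 398 genes of the run were higher in TAM111. Leaving out 1 library gave 1233 to 1984 DEGs, with 615 to 1052 higher in TAM112 and 572 to 942 higher in TAM111, and 344 to 367 in the run. The lowest counts came without TAM111 replicate 2 (1233) and without TAM112 replicate 1 (1234). Without both replicate 3 libraries, a setting chosen after seeing the data, there were 1592. Named genes with a called interaction numbered 1, but 2 with library sizes alone, 2 without a filter, 4 with the block and 0 to 1 with a library left out. TraesCS5D02G161800 is the 1, and it was lost without replicate 1 or 2 of either cultivar. Of 23 named DEGs, 16 were called in each alternative that tested them and 7 were not in at least 1, most often TraesCS1B02G480100 and TraesCS2A02G130900 (8 settings each). No named gene changed direction. Sets of homeologs with a DEG were 7.73% by exonic length within 2% (32 sets) and 7.79% by exon profile (445). Identical length gave 3 sets and a tolerance of 5% gave 95. The cause of these shifts was not tested. Depth limits genes near 3 counts, where folds are bounds, and 16900 genes outside the run had an unadjusted p under 0.05, before adjustment and the fold threshold.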
